A study of Cavia porcellus with 24 samples.

Results

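The methylomes of whole blood and hippocampus were compared in the control offspring of the study, female guinea pigs (Cavia porcellus) whose mothers had received saline. At the 2394065 cytosines compared, blood was the more methylated tissue: 16.8% of cytosines were called higher in blood and 4.86% higher in hippocampus (Fisher's exact test, two-sided, on reads summed within a group, called at a Benjamini-Hochberg adjusted p below 0.05 with the tissues at least 5 percentage points apart). The difference was concentrated in cytosines that were partly methylated in hippocampus and nearly fully methylated in blood. Cytosines in CpG-dense sequence were mostly unmethylated in both tissues and differed least. In 2073 runs of neighbouring cytosines, blood was called higher at every cytosine, and in 569 runs the hippocampus was, and the mean difference of a run, blood less hippocampus, ranged up to 83.7 and down to -80.1 percentage points.

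DNA methylation was measured by reduced representation bisulfite sequencing (RRBS), which reads the ends of MspI fragments, found mainly where CpGs are frequent, and takes the share of reads that still show a cytosine after bisulfite treatment as its methylation percentage. The control group comprised 6 animals, 1 per litter, sampled on postnatal day 14, and each animal gave a hippocampus and a whole blood sample, so that 12 of the 24 samples of the study were control samples. The other 12 samples came from 6 female offspring of mothers given 3 courses of betamethasone, a synthetic glucocorticoid (sGC), at 1 mg/kg on gestational days 40 and 41, 50 and 51, and 60 and 61. They share no animal with the control group and were used as a repeat of the tissue comparison and as a measure of how far 2 pools of the same tissue lay apart. No animal carried a genetic modification, all were of the Hartley strain, and hippocampus and blood are mixtures of cell types, whose proportions were not measured. DNA was extracted with a different kit from each tissue, so that tissue and extraction kit cannot be told apart.

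Cytosines were compared where the control group had at least 20 reads in both tissues, which held for 2394065 of the 2564116 cytosines listed in both tissues (93.4%) and of the 3233055 listed in either. They belong to 1923267 CpGs on 1406 scaffolds of the genome build cavPor3. A compared cytosine had a median of 94 control reads in hippocampus (quartiles 62 and 129) and of 88 in blood (quartiles 55 and 129). Coverage summed over the cytosines to 250777292 and 243563619, where a read counts once at each cytosine that it covers. Each group has 1 value per cytosine, the reads of 6 animals added together, so that there is no spread between animals and a p-value compares pools of reads and not animals. A cytosine with 10 of 20 reads methylated has a 95% Wilson interval of 29.9% to 70.1%, and one with 44 of 88 reads an interval of 39.8% to 60.2%. These intervals cover counting error only.

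In mammals, methyl groups are placed on the cytosine of CpG dinucleotides by DNA methyltransferases and removed through oxidation by TET enzymes. Most CpGs of the genome are methylated, whereas clusters of CpGs known as CpG islands, many of them at promoters, are usually free of methylation. Differences between tissues arise during development and lie mainly at regulatory elements, and a tissue's methylation profile therefore identifies its cells. A mixture of cells that are methylated and unmethylated at a cytosine gives an intermediate percentage. In females, the inactive X chromosome is methylated at many CpG islands, and imprinted regions are methylated on the copy from 1 parent.

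In both tissues, the methylation percentages gathered toward the ends of the scale. In the hippocampus, 22.6% of the compared cytosines had less than 5% methylation and 14.2% had more than 95%. In the blood, the corresponding shares were 21.4% and 21.3%. The tissues were therefore close to each other at the unmethylated end and farther apart at the methylated end. Over all compared cytosines, hippocampus had a median methylation of 73.6% and blood one of 84.6%, and the means were 56.5% and 61.4%. The mean difference, blood less hippocampus, was 4.94 percentage points, whereas the median difference was 1.59 points (quartiles -1.25 and 8.86). Blood was higher at 1503964 cytosines (62.8%), hippocampus at 823128 (34.4%), and 66973 (2.80%) had the same value in both. In the sGC offspring, at the same cytosines, the means were 57.6% in hippocampus and 62.0% in blood, a mean difference of 4.40 points. The direction of the mean difference was thus the same in the other 6 animals.

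**Figure D1:**
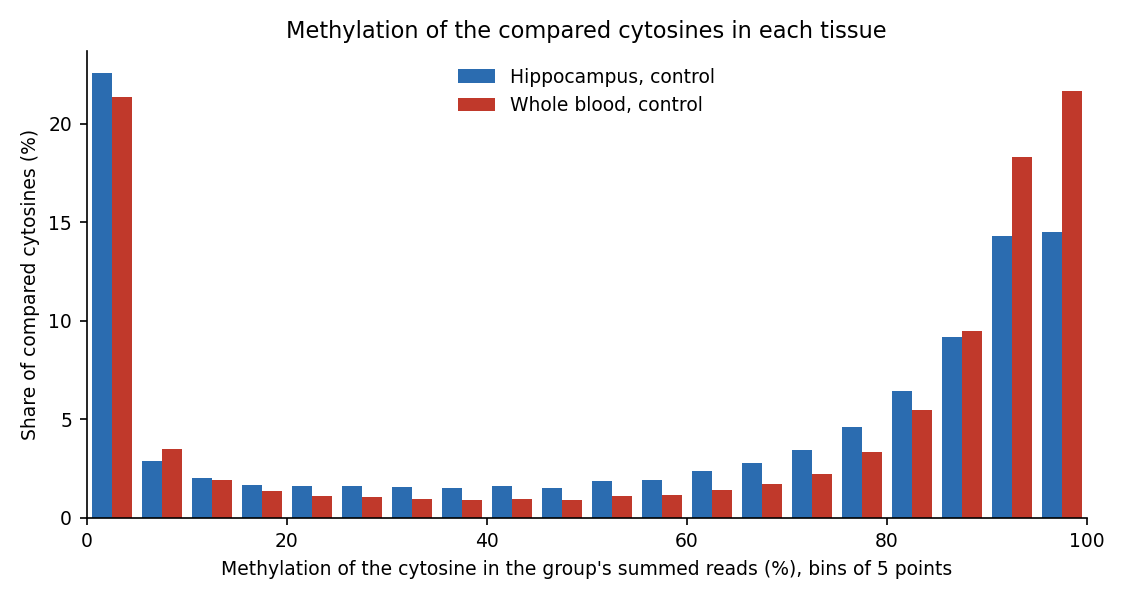
Share of the 2394065 compared cytosines (y axis, %) by methylation percentage in bins of 5 points (x axis) in the control hippocampus (blue) and control blood (red). The lowest bin holds similar shares of both tissues (22.6% and 21.4%), blood has the larger share above 85%, and the hippocampus has the larger share in every bin from 10% to 85%.

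The methylation percentages of the tissues were close at most cytosines. At 1666747 cytosines (69.6%) blood and hippocampus lay less than 10 points apart, and the Pearson correlation across cytosines was 0.903. Cytosines are not independent replicates, and the correlation is a description of these pools. Of the compared cytosines, 54719 had no methylated read in either tissue and 5731 had no unmethylated read in either. Where the tissues were not close, the hippocampus tended to hold the intermediate value.

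Cytosines were then divided into low (below 20%), intermediate (20% to 80%) and high (above 80%) methylation. The hippocampus had 29.2% of cytosines in the low, 26.7% in the intermediate and 44.1% in the high class, and the blood had 28.2%, 17.1% and 54.7%. The size of the intermediate class depended on the limits, and with limits of 10% and 90% it held 46.1% of cytosines in hippocampus and 35.5% in blood. Of the cytosines that were low in the hippocampus, 89.3% were also low in the blood, and of those that were high in the hippocampus, 92.7% were also high in the blood. The intermediate class was the one in which the tissues parted: of the 639900 cytosines that were intermediate in the hippocampus, 42.5% were intermediate in the blood, 50.2% were high and 7.24% were low. The 321497 cytosines that were intermediate in hippocampus and high in blood made up 13.4% of all compared cytosines and had a mean difference of 27.1 points (23.5 points in the sGC offspring), and 224056 of them were called. The reverse class, high in hippocampus and intermediate in blood, held 72914 cytosines.

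Changes from one end of the scale to the other were rare. There were 10187 cytosines (0.426%) that were low in hippocampus and high in blood, with a mean difference of 73.3 points in the control offspring and 68.1 points in the sGC offspring. Another 4669 cytosines (0.195%) were high in hippocampus and low in blood, with mean differences of -74.2 and -70.8 points. The classes were formed from the control values, and the sGC values at the same cytosines are the ones that did not enter the choice. At the 623199 cytosines that were low in both tissues, the mean difference was 0.488 points, and at the 978327 that were high in both, it was 1.77 points.

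**Figure D2:**
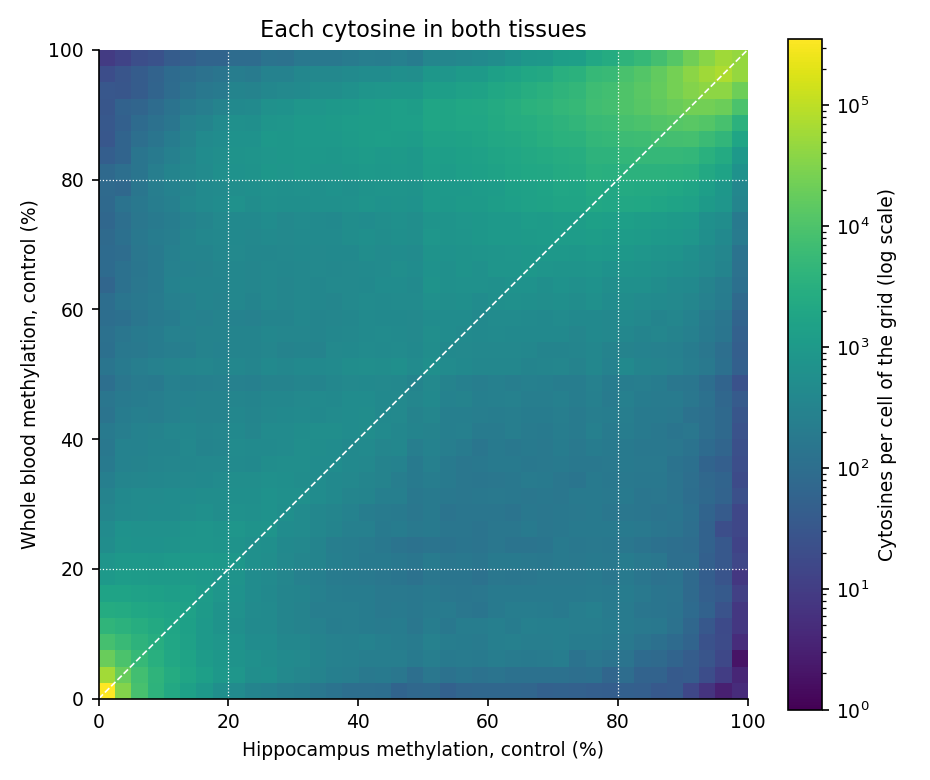
Number of cytosines (colour, log scale) by methylation percentage in control hippocampus (x axis) and control blood (y axis), in cells of 2.5 by 2.5 percentage points, with the dashed line marking equal values and dotted lines the limits of 20% and 80%. Cytosines gather at the corners where both tissues are low or both are high, and a broad band runs along the top of the plot, where blood is above 80% and the hippocampus is intermediate, which has a fainter counterpart on the right.

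Of the compared cytosines, 518788 were called different between the tissues, 21.7% of those tested. Blood was the higher tissue at 402323 of them (77.6%) and hippocampus at 116465 (22.4%). At cytosines called higher in blood, the median methylation was 51.1% in hippocampus and 87.8% in blood, and the median difference was 28.1 points (quartiles 18.1 and 42.7). At cytosines called higher in hippocampus, the medians were 75% and 28%, with a median difference of -29.5 points (quartiles -45.4 and -18.9). Differences in the 2 directions were thus of like size and differed in number. Among the called cytosines, a difference of at least 25 points was reached at 229380 with blood higher and 69475 with hippocampus higher, one of at least 50 points at 65718 and 23058, and one of at least 75 points at 4216 and 2226. The median read numbers were 104 in hippocampus and 99 in blood at cytosines called higher in blood, 100 and 104 at those called higher in hippocampus, and 92 and 85 at those not called. With each cytosine thinned to 20 reads in both tissues, 108513 cytosines were called, 75.2% of them higher in blood, so that depth moved the number of calls more than their direction.

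The tissue difference was set beside the difference between pools of the same tissue, at the 2342490 cytosines with at least 20 reads in all 4 groups. The median absolute difference between control blood and control hippocampus was 4.35 points, that between sGC and control hippocampus 2.58 points and that between sGC and control blood 2.44 points. The tissues differed by at least 25 points at 12.8% of these cytosines, whereas the treatment groups did so at 0.393% in hippocampus and 0.306% in blood. The same test called 0.149% of cytosines between sGC and control hippocampus (3499) and 0.44% between sGC and control blood (10302). The typical cytosine therefore differed between tissues by somewhat more than between pools of the same tissue, and the large differences were those that set the tissues apart. Since the within-tissue pools also differ by treatment, their difference is not a pure measure of the spread between animals.

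In the sGC offspring, 23.5% of the cytosines were called between blood and hippocampus (549793 of 2342490). Of the 511402 cytosines called in the control offspring among these, 502350 (98.2%) had the same direction in the sGC offspring and 400717 (78.4%) were also called there in that direction. The share rose with the size of the difference: of the 85732 cytosines called with a difference of at least 50 points, 99.993% kept the direction and 98.9% were called in the same direction. The median absolute difference of the called cytosines was 28.1 points in the control offspring, which chose them, and 25.3 points in the sGC offspring. A test of the tissue difference between the control and sGC offspring (z test on log odds ratios of the summed reads, Benjamini-Hochberg adjusted p below 0.05) called 269 cytosines, 0.0115% of those tested, and 101537 had an unadjusted p below that level. The tissue profile was thus shared by 2 sets of animals that have no member in common.

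The strands of a CpG are read in separate reads and gave the same picture. Both strands come from the same pools of animals, so their agreement is a description and not an independent repeat. Both strands were compared at 470798 CpGs, and the tissue difference on one strand had a Pearson correlation of 0.907 with that on the other. Where at least 1 strand was called (142184 CpGs), the strands had the same direction at 96.4%. Where both were called (81640 CpGs), they had opposite directions at 10 CpGs. The difference between strands in the tissue difference had a median size of 3.70 points.

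Neighbouring cytosines tended to differ together. The Pearson correlation of the tissue difference between adjacent compared CpGs was 0.884 at distances of 2 to 10 bp, 0.609 at 101 to 200 bp, 0.419 at 201 to 500 bp and 0.0835 at 1001 to 2000 bp. Pairs closer than 75 bp, the read length, can lie on the same reads, and pairs farther apart than that do not. Next to a cytosine with a difference of at least 25 points, the neighbour at 101 to 200 bp had the same direction in 88.8% of 14121 pairs and the neighbour at 5001 to 10000 bp in 60.6% of 5015 pairs. Neighbours thus deviated alike mostly within 500 bp. These correlations are descriptions across cytosines of the same pools.

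Local CpG density was counted as the number of other listed CpGs within 100 bp on either side. Cytosines with no such neighbour had a mean methylation of 76.5% in hippocampus and 82.7% in blood. Cytosines with 21 to 25 neighbours had means of 10.0% and 11.8%. The mean difference fell from 6.22 points to 1.73 points over this range, and the share of cytosines called in either direction fell from 25.5% to 6.59%. Blood was called higher more often than hippocampus in each of the density classes. In the densest class, with 31 to 43 neighbours, the means were 10.3% and 14.2%, a difference of 3.92 points, and 10.2% of cytosines were called. A single run of cytosines, described with the longest runs, held 113 of the 6798 cytosines of this class, and without it the difference was 3.10 points and the share called 8.65%. The sparse end also held the most intermediate values, with 37.0% of the cytosines without neighbours intermediate in the hippocampus and 21.5% in the blood. Density counts the listed CpGs and not those of the genome, and the median number of reads in hippocampus was 70 at cytosines without neighbours and 99 at those with 21 to 25.

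**Figure D3:**
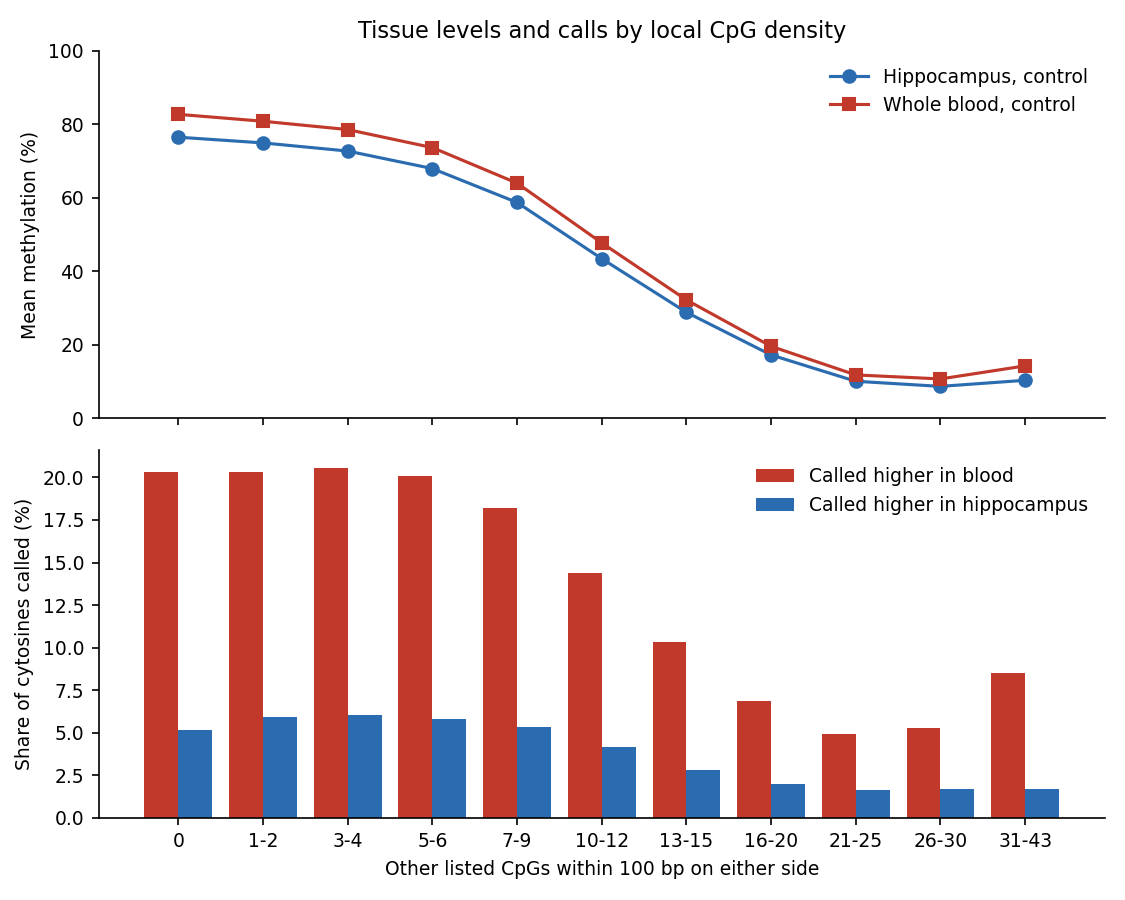
Upper panel, mean methylation (y axis, %) of control hippocampus (blue circles) and control blood (red squares) by the number of other listed CpGs within 100 bp (x axis). Lower panel, share of cytosines called higher in blood (red) and in hippocampus (blue). Methylation falls in both tissues as density rises to 26 to 30 neighbours, where hippocampus is at 8.66% and blood at 10.7%. In the densest class it is higher again, at 10.3% and 14.2%. Blood stays above hippocampus in each class. The share called higher in blood falls from 20.3% to 4.94% at 21 to 25 neighbours and is 8.49% in the densest class.

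The excess of methylation in blood was spread over the genome. On each of the 114 scaffolds with at least 5000 compared cytosines, the mean difference was above 0, and it ranged from 2.25 points on DS562957.1 to 10.2 points on DS563015.1, with a median of 4.69. In windows of 1000000 bp with at least 200 compared cytosines, 1924 of 1998 windows had a higher mean in blood and 74 had a higher mean in hippocampus. The difference was therefore not carried by a few scaffolds.

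Runs of compared cytosines with gaps of at most 200 bp and at least 10 cytosines were then examined. There were 67711 such runs, of which 23836 (35.2%) held no called cytosine and 4146 held calls in both directions. Every cytosine was called higher in blood in 2073 runs (3.06% of all runs) and higher in hippocampus in 569 runs (0.84%). The median difference of these runs was 49.4 points and -52.6 points, and in the sGC offspring, which did not enter the choice, it was 48.2 and -53.2 points, with the same sign in each of the 2073 and each of the 569 runs. Runs called throughout were sparser in CpGs than others. A mean of 13 or more neighbouring CpGs was found in 2.80% of those higher in blood and 1.58% of those higher in hippocampus, against 16.7% of all runs. Every cytosine of such a run had to be called, and cytosines in dense sequence were called less often. The lower density therefore follows in part from the choice.

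The runs with the greatest mean differences reached nearly opposite states in the 2 tissues. A run of 20 cytosines at DS562875.1:9659298-9659428 had a mean methylation of 7.30% in hippocampus and 91.0% in blood, a difference of 83.7 points (79.6 points in the sGC offspring). With coverage summed over its 20 cytosines, the methylated count was 116 of 1614 in hippocampus and 812 of 894 in blood. In such sums a read counts once at each cytosine that it covers. No gene was named there in the gene tables as far as they were read, which were partly shortened. The next run held 53 cytosines at DS562864.1:40096145-40096585, where positions of AGAP2, which encodes a GTPase-activating protein for Arf proteins that is abundant in brain, were named. It had 4.05% methylation in hippocampus and 87.0% in blood, a difference of 83.0 points (83.5 points in the sGC offspring), and single cytosines ranged from 0% to 14.8% in hippocampus and from 36.2% to 100% in blood, so that the tissues did not overlap. The other 3 runs, with no named gene, were at DS562864.1:40338712-40338807 (14 cytosines, 5.52% and 87.7%), DS562877.1:8993575-8993937 (52 cytosines, 1.58% and 82.4%) and DS562908.1:8889633-8889936 (11 cytosines, 4.21% and 84.8%).

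In the hippocampus, the greatest mean difference was found in a run of 12 cytosines at DS562874.1:30096796-30097046, with 86.5% methylation in hippocampus and 6.40% in blood, a difference of -80.1 points (-79.3 points in the sGC offspring). With coverage summed over its cytosines, the methylated count was 900 of 1041 in hippocampus and 66 of 1027 in blood. In a run of 22 cytosines at DS562882.1:1445818-1445929, the means were 88.9% and 10.4%, the lowest cytosine in hippocampus was at 73.7% and the highest in blood at 22.6%, and the difference was -78.5 points (-82.3 points in the sGC offspring). The 3 other runs were at DS562898.1:1374022-1374054 (10 cytosines, 83.6% and 4.84%), DS563261.1:91257-91370 (15 cytosines, 83.4% and 5.50%) and DS563202.1:120842-120888 (12 cytosines, 90.6% and 12.8%). No gene was named at any of these 5 runs.

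The longest runs called throughout were not those with the greatest differences. The run with most cytosines, 274 over 1554 bp at DS563201.1:249970-251523, had 4.37% methylation in hippocampus and 64.7% in blood (60.3 points, and 62.1 points in the sGC offspring). It lay in dense sequence, with a mean of 28.1 other listed CpGs within 100 bp of its cytosines, where most cytosines were unmethylated in both tissues. The longest run with hippocampus higher held 50 cytosines over 870 bp at DS562861.1:26752544-26753413, with 76.2% in hippocampus and 5.27% in blood (-70.9 points, and -72.9 points in the sGC offspring).

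**Figure D4:**
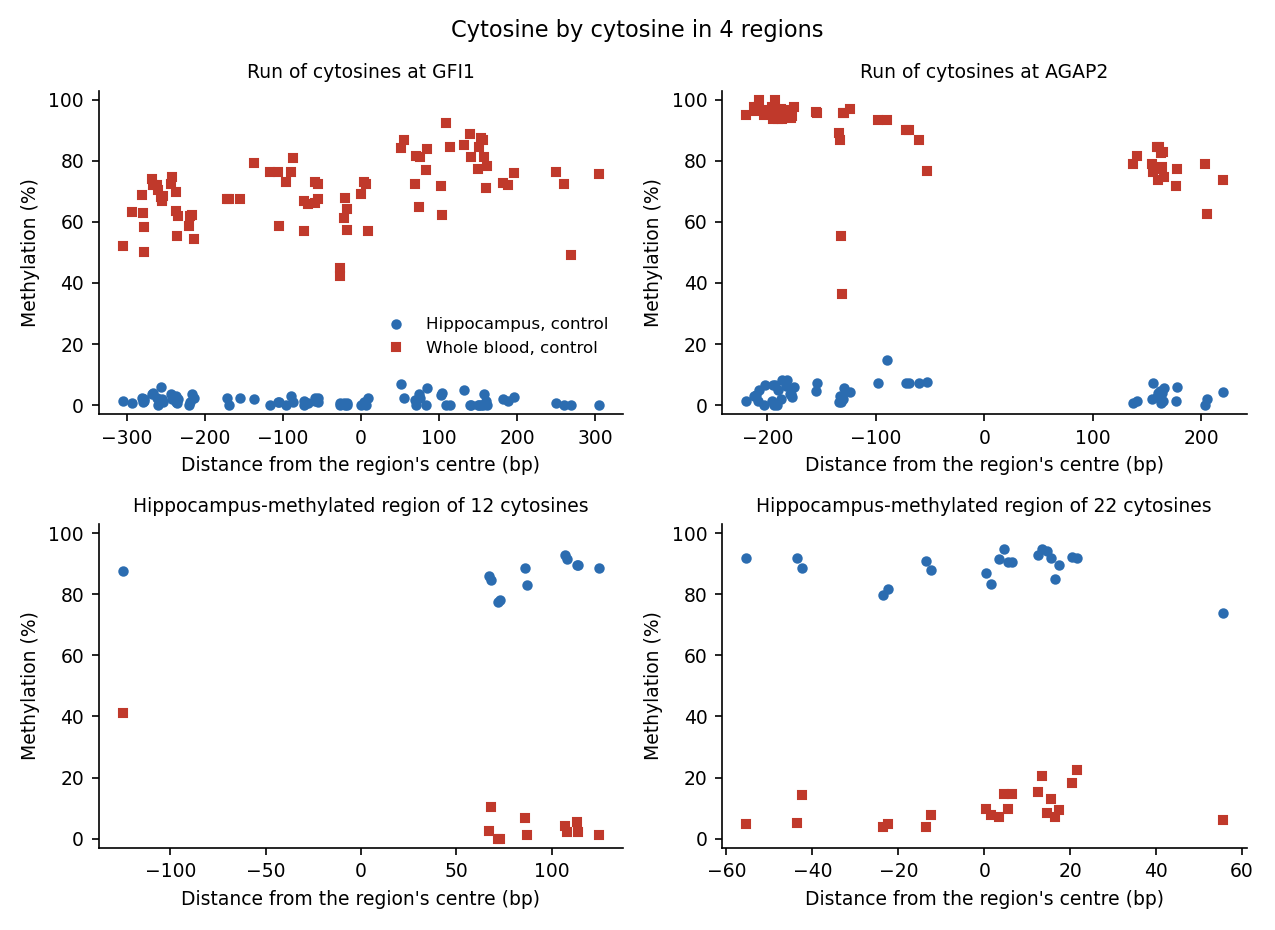
Methylation (y axis, %) of each compared cytosine in control hippocampus (blue circles) and control blood (red squares) by distance in bp from the centre of 4 runs of cytosines (x axis): the runs at GFI1 and AGAP2, with blood higher, and the runs of 12 and 22 cytosines with hippocampus higher. In each run the values of the tissues are separate at every cytosine, with blood between 42.3% and 92.3% and hippocampus at or below 6.82% at GFI1.

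Gene names were available only for positions that the study's readable tables of sGC-associated cytosines name, which gave 170 genes, 100 of them at 3 or more positions. At 98 of these at least 3 cytosines between the first and last named position could be compared. These loci were selected by the study for a difference between sGC and control in the same pools, so they are not representative of genes, and the counts below describe them and nothing wider. Among the 98 loci, blood was higher by at least 10 points at 70, hippocampus at 12, and 16 lay within 10 points, with a median difference of 35.3 points. Among all 67711 runs of 10 or more cytosines, blood was higher by at least 10 points in 20.7% and hippocampus in 5.55%, with a median of 1.96 points. Of the 6980 cytosines of the 98 loci, 38.8% were called higher in blood and 7.46% higher in hippocampus, against 16.8% and 4.86% of all compared cytosines. The direction was the same in the sGC offspring at 97 of the 98 loci. Exons, introns and promoters were not assigned, because an annotation of cavPor3 was not used here.

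Of 25 listed genes of the nervous system, 18 had a compared locus. Blood was higher by at least 10 points at 15 of them and none was higher in hippocampus by that much, with a median difference of 51.4 points. Of their 1050 cytosines, 58.9% were called higher in blood and 3.52% higher in hippocampus, against 38.8% and 7.46% over all 98 loci. A single long locus, NFIA, weighed heavily in these shares. It held 556 of the 1050 cytosines, 337 of the 618 called higher in blood and 22 of the 37 called higher in hippocampus. By locus, the median of 51.4 points was close to the 51.7 points of the 17 loci of growth signals and transcription factors. At NAV1, a neuron navigator that acts on microtubules in migrating neurons (DS562867.1:20824030-20824154), the mean over 20 cytosines was 10.9% in hippocampus and 86.2% in blood. At KIF21B, a kinesin motor of neurons (DS562867.1:21373527-21373718), the mean over 22 cytosines was 1.95% and 75.3%. Every cytosine of both loci was called higher in blood.

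Other loci of this group showed the same pattern with fewer cytosines. At AGAP2 (DS562864.1:40096502-40096643), the 17 cytosines between the named positions had 2.93% and 77.5%. These cytosines are part of the AGAP2 run described above and are not a further region. MDGA1, a membrane-anchored regulator of synapses, had 17.5% and 82.9% over 8 cytosines. DSCAML1, a cell adhesion molecule of developing neurons, had 19.9% and 83.6% over 3 cytosines. NOS1, the neuronal nitric oxide synthase, had 16.3% and 72.8% over 7 cytosines.

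Some loci with more cytosines mixed called and uncalled cytosines. NFIA, a transcription factor of glial development, had 53.4% in hippocampus and 84.6% in blood over 556 cytosines (DS562857.1:69658605-69927749), of which 337 were called higher in blood and 22 higher in hippocampus. Its difference was 31.2 points over the locus and 64.8 points at the named positions alone. SLIT1, an axon guidance ligand, had 64.3% and 84.6% over 179 cytosines, a difference of 20.3 points, and 46.1 points at its named positions alone. The 3 loci within 10 points were NR4A2, a nuclear receptor of dopaminergic neurons (65.4% and 68.0%), MEF2C, a transcription factor of neurons and muscle (73.6% and 77.0%), and SYNPR, a synaptic vesicle protein (47.6% and 56.5%, with a difference of 38.1 points at its named positions alone). At MEF2C the mean concealed opposite directions, since 13 cytosines were called higher in blood and 6 higher in hippocampus, and the named positions alone had a difference of -47.5 points.

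Among 9 listed blood and immune genes, 6 had a compared locus, of which blood was higher by at least 10 points at 3 and hippocampus at 2, with a median difference of 20.1 points. Of their 290 cytosines, 34.5% were called higher in blood and 21.0% higher in hippocampus, against 38.8% and 7.46% over all 98 loci. Single loci carried these shares, since GFI1 held 77 of the 100 cytosines called higher in blood and TESC 56 of the 61 called higher in hippocampus. GFI1, a zinc-finger repressor in blood cell development, had 1.55% methylation in hippocampus and 70.5% in blood over 77 cytosines (DS562857.1:18364966-18365551), each of them called higher in blood. Its most deeply read cytosine had 2 of 154 reads methylated in hippocampus (1.30%, 95% Wilson interval 0.357% to 4.61%) and 126 of 177 in blood (71.2%, 64.1% to 77.4%), with an adjusted p of 8.00e-43 (Fisher's exact test). SNX20, a sorting nexin of leukocytes, had 12.6% and 81.8% over 13 cytosines, all called higher in blood. JAK1, a kinase of cytokine receptors, had 53.0% and 94.3% over 3 cytosines.

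The remaining blood and immune loci were not higher in blood. TESC, a calcium-binding protein, had 78.7% in hippocampus and 54.4% in blood over 116 cytosines (DS562859.1:2625836-2637940), of which 56 were called higher in hippocampus and 7 higher in blood. NMI, an interferon-induced partner of STAT proteins, had 75.2% and 56.5% over 3 cytosines. STEAP3, an iron reductase of red cell precursors, was low in both tissues, with 7.14% and 6.03% over 78 cytosines, and its difference of -1.11 points became 2.16 points at the named positions alone.

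Of 25 listed genes of growth signals and transcription factors, 17 had a compared locus, of which blood was higher by at least 10 points at 12 and hippocampus at 2, with a median difference of 51.7 points, against 70 and 12 of all 98 loci. Of their 1467 cytosines, 36.1% were called higher in blood and 9.07% higher in hippocampus, close to the shares over all 98 loci. A single long locus, ROR1, weighed heavily in these shares. It held 835 of the 1467 cytosines, 228 of the 530 called higher in blood and 97 of the 133 called higher in hippocampus. The greatest differences toward blood were at RXRA, a retinoid X receptor (8.33% in hippocampus and 79.7% in blood over 11 cytosines), TLE3, a corepressor (18.9% and 85.8% over 7) and RAPGEF3, a cAMP-activated exchange factor (18.4% and 82.3% over 11). MAP3K6, a stress-signalling kinase, had 23.4% and 84.5% over 42 cytosines, all called. ANGPT1, a ligand of blood vessels, and EBF2, a transcription factor, were the loci with hippocampus higher: ANGPT1 had 51.9% and 14.6% over 8 cytosines and EBF2 had 49.5% and 13.1% over 3. ROR1, a receptor of the Wnt pathway, had 77.0% and 82.2% over 835 cytosines, with 228 called higher in blood and 97 higher in hippocampus. A locus of that length thus held cytosines of both kinds, and the named positions of ROR1 alone had a difference of 38.7 points, against 5.17 points over the locus.

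Of 16 listed genes of adhesion, matrix and cytoskeleton, 9 had a compared locus, and blood was higher by at least 10 points at 6, with a median difference of 23.4 points. Of their 904 cytosines, 33.5% were called higher in blood and 6.42% higher in hippocampus, also close to the shares over all 98 loci. A single long locus, COL4A1, lowered the share toward blood. It held 340 of the 904 cytosines, 35 of the 303 called higher in blood and 22 of the 58 called higher in hippocampus. MMP16, a membrane-bound metalloproteinase, had 27.7% in hippocampus and 86.5% in blood over 3 cytosines. SORBS3, an adaptor of the cytoskeleton, had 48.2% and 87.9% over 64 cytosines, of which 49 were called higher in blood and none higher in hippocampus. COL4A1, a collagen of basement membranes, was methylated in both tissues, with 84.1% and 84.7% over 340 cytosines, and its named positions alone had a difference of -22.2 points.

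**Figure D5:**
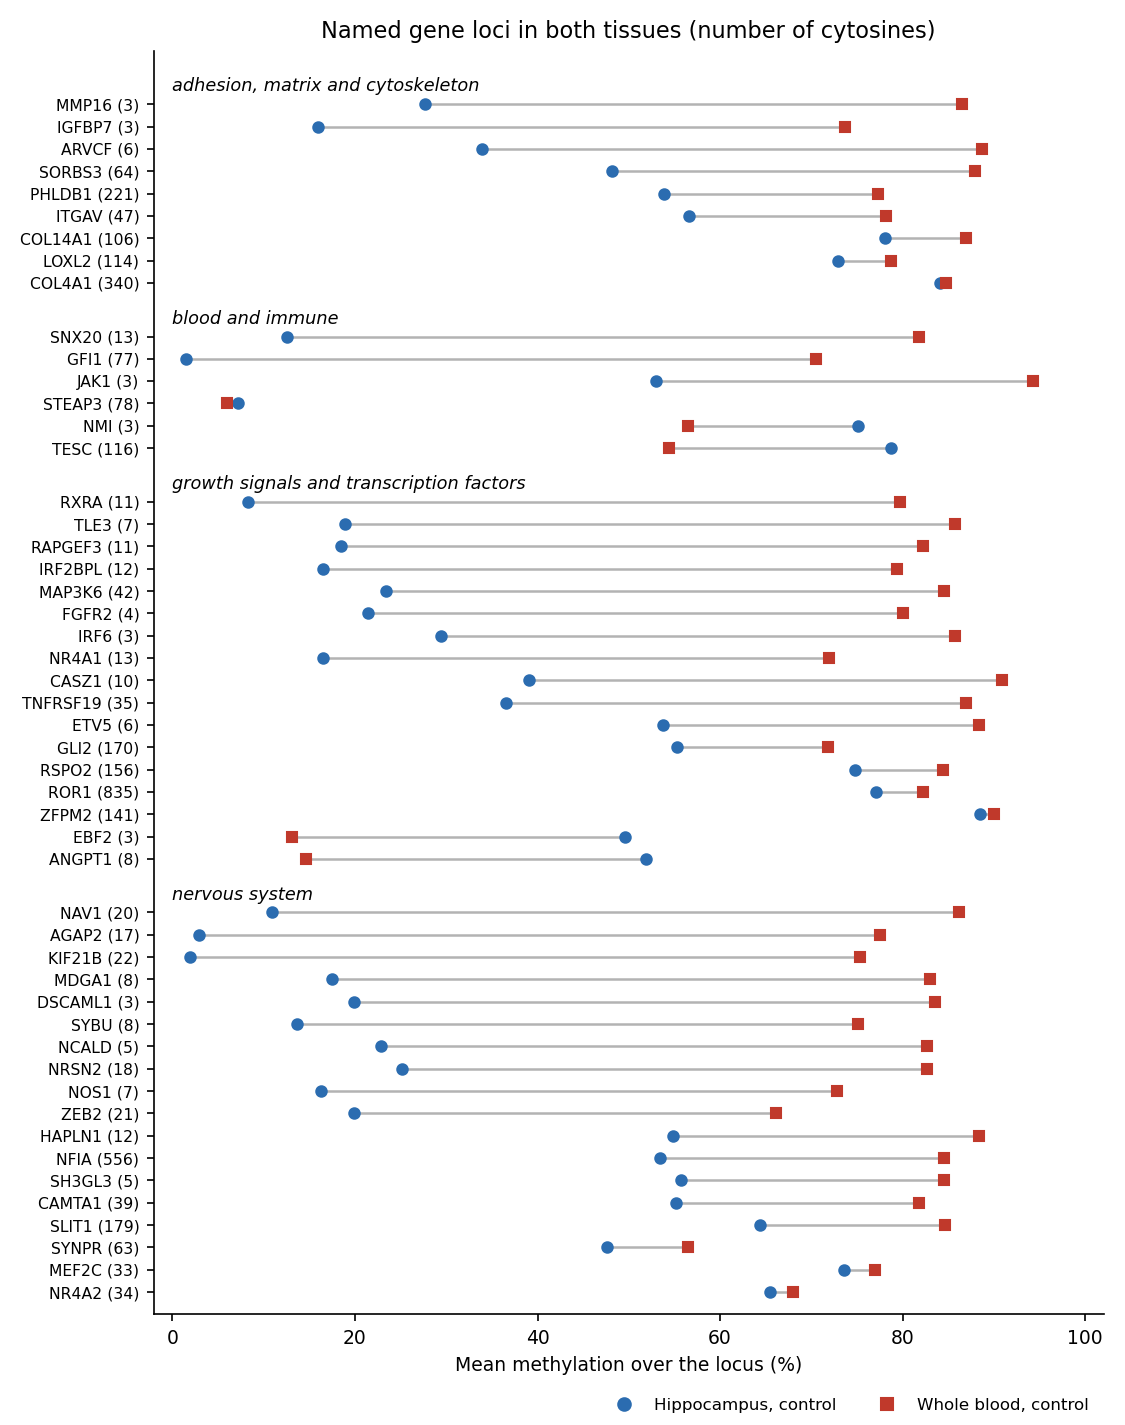
Mean methylation (x axis, %) of each named gene locus in control hippocampus (blue circles) and control blood (red squares), with a grey line joining the tissues, the number of compared cytosines in brackets and the loci ordered by difference within 4 groups of genes. Blood lies to the right at most loci, whereas TESC, NMI, STEAP3, ANGPT1 and EBF2 have the hippocampus to the right.

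The other 48 compared loci lay in none of these groups, and those named here were chosen after their values were seen. The greatest differences toward hippocampus of all 98 loci were at LGSN (84.3% in hippocampus and 9.17% in blood over 19 cytosines), FXYD6, a regulator of the sodium pump (87.6% and 17.6% over 10), SMARCB1, a subunit of a chromatin remodelling complex (73.6% and 8.46% over 4), and DHRS3, a retinal reductase (77.4% and 15.4% over 13). All cytosines of these 4 loci were called higher in hippocampus. HM13, a peptidase in an imprinted region, had 73.0% and 73.7% over 32 cytosines, of which 3 were called, and its difference of 0.666 points became -1.13 points at the named positions alone. MAN1C1, a mannosidase, had the greatest difference toward blood, 11.6% and 88.0% over 4 cytosines.

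Markers that define the tissues could be reached in few cases. Of 54 listed markers of blood and immune cells, 4 were named at any position (GFI1, SELPLG, SNX20 and IL6R), of 39 markers of neurons 2 (KIF21B and NAV1) and of 21 markers of glia 1 (NFIA). None of 5 microglial, 10 germ line, 10 housekeeping and 11 glucocorticoid axis genes and of 9 enzymes of DNA methylation was named, and they were not analysed here. At KIF21B and NAV1 the hippocampus was the unmethylated tissue, and at GFI1 and SNX20 it was likewise the hippocampus. The labels of the tissues could therefore not be checked against a full set of markers, and gene expression was not measured.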

How the data were processed

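Hippocampus and whole blood of 12 female guinea pigs were examined by RRBS, sequenced as single end reads of 75 bp. Per the labels and the methods of the study, reads were trimmed with Trim Galore and a NuGEN script, aligned with Bismark (0.16.0) and sorted with SAMtools (1.7), versions per the submitters' processing notes, and tested with MethPipe with batch as covariate on cavPor3. The authors deposited 2 tables, 1 per tissue, which give at each position with at least 10 reads the methylated read count and the coverage, both added up over 6 animals and not normalized. A column of FDR values of sGC against control is the authors' own comparison and was not used.

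Tables were joined on scaffold, position and strand. Methylation was methylated over total reads. Blood and hippocampus were compared by a two-sided Fisher's exact test per cytosine with Benjamini-Hochberg adjustment over the 2394065 cytosines, and calls needed an adjusted p below 0.05 with tissues at least 5 percentage points apart, the thresholds of the study. The test was checked against scipy and on simulated reads. Batches and single animals could not enter. Positions are given as deposited. Named regions were the 5 runs with the highest and the 5 with the lowest mean difference among those called throughout. The run with most cytosines in each direction was named as well. Named genes of the 4 groups were listed genes at 3 or more named positions. Genes of loci outside these groups were named after their values were seen. Gene names came from the study's tables, of which some were incomplete. The members and lists were chosen with earlier results of these data known. Alternatives changed the minimum reads, the minimum difference, the test, the strands, the depth and the region limits. The software was matplotlib 3.10.9, numba 0.67.0, scipy 1.17.1, pandas 2.3.3 and numpy 2.4.6 under Python 3.11.15.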

Additional observations from a re-analysis of the deposited data

Results flagged for a closer look

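The tissue difference itself differed between the control and the sGC offspring at 269 of 2342490 cytosines (z test on log odds ratios, Benjamini-Hochberg adjusted p below 0.05), and at 109 of these the direction was the same in both. At 54 cytosines, blood and hippocampus were called different in both sets of offspring and in opposite directions. Both counts compare pools of reads and not animals.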

How the results depend on the processing

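The direction of the mean difference and the excess of calls toward blood were kept under every alternative that was run. The calls (518788, with 402323 toward blood and 116465 toward hippocampus) moved by more than 1.5 times at a minimum of 100 reads (239604, 185290 and 54314), at a minimum difference of 25 points (298855, 229380 and 69475) or 50 points (88776, 65718 and 23058), and with each cytosine thinned to 20 reads (108513, 81580 and 26933), which is a loss of tested cytosines, of admitted differences and of reads by construction. They stayed within 1.5 times at 10 and 50 reads, at 10 points, with strands summed (453791), with the chi-square divided by the inflation of sGC against control, 1.68 (359477), as calls repeated in the sGC offspring (400717) and, chosen after seeing the data, without cytosines over 500 reads (516517). Intermediate cytosines made up 24.8% in hippocampus and 16.0% in blood at 100 reads, and 46.1% and 35.5% with limits of 10% and 90%. The strands had the same direction at 96.7% at 100 reads. With at least 5 cytosines, 6807 runs were called throughout toward blood and 1896 toward hippocampus. Among the 50 loci of the 4 gene groups, differences reversed at the named positions alone for COL4A1 (-22.2), MEF2C (-47.5), RSPO2 (-10.4) and STEAP3 (2.16), and with each read weighted equally for COL4A1 (-0.413) and MEF2C (-1.87); the cause was not tested. Outside these groups, EXT1 (-1.30 to 21.6), HM13 (0.666 to -1.13) and CDK5RAP2 (0.0949 to -3.36) reversed at the named positions, and CDK5RAP2 (-1.68) also with each read weighted equally. Of the other alternatives for the 50 loci, 87 stayed within the spread of their cytosines and 7 moved.

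No paired analysis was possible because the deposited columns hold sums over the 6 animals of a group, and for the same reason no animal could be left out in turn. At the median of 88 reads in blood, a value of 50% carries an interval of 39.8% to 60.2%, which narrows toward 0% and 100%, so that the depth limits small differences most at intermediate cytosines.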

Other observations

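CpG-dense cytosines (13 or more other listed CpGs within 100 bp) with 30% to 70% methylation in both tissues were unevenly spread over scaffolds. The limits were chosen after the values were seen, and the counts are a description without a test. Among 171 scaffolds with at least 500 dense cytosines, the median share of such cytosines was 1.83%. In 11 scaffolds the share was at least 20%, highest on DS562987.1 and followed by 34.2% on DS562983.1 and 31.6% on DS563003.1, and the next scaffold had 12.6%. On these 11 scaffolds, 3220 of 11557 dense cytosines (27.9%) met the limits, against 2.32% elsewhere, and in the sGC offspring the shares were 29.6% and 2.39%. The 3220 cytosines had mean methylation of 40.9% in hippocampus and 43.3% in blood, and 1.58% of them were called different between the tissues, against 21.7% of all compared cytosines. They were chosen for lying between the same limits in both tissues, so that close means and few calls follow in part from the choice. The scaffolds were not assigned to chromosomes here.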
